A study of Mus musculus with 46 samples.

Results

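The regions described here were the sites of C/EBPα binding in mouse liver, as mapped by chromatin immunoprecipitation and sequencing (ChIP-seq) in mice fed a lipid-rich diet (LD, labelled high fat diet) or a carbohydrate-rich diet (CD, labelled low fat diet). Each diet gave 2 C/EBPα libraries, and each library came with its own list of peaks. Overlapping peaks of the 4 lists were merged into 97466 loci, of which 13813 (14.2%) had a peak in all 4 lists and were compared between the diets. The series holds 46 samples in all. The other samples used here were the Hnf4α ChIP-seq lists (2 per diet), the H3K27ac ChIP-seq lists (3 per diet), the RNA-seq libraries (5 mice per diet) and the promoter interaction lists (1 pooled list per diet).

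All groups were livers of male C57BL/6 mice with no engineered allele. The mice were 5 weeks old on arrival, had 1 week on chow and were then fed for up to 20 weeks. Fat supplied 60% of the energy of the LD and 10% of that of the CD, carbohydrate supplied 20% and 70%, and protein 20% in either diet, so that no group stayed on chow. The labels do not tie the mice of the ChIP-seq to those of the RNA-seq.

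C/EBPα is a basic leucine zipper transcription factor that binds DNA as a dimer, alone or with other C/EBP proteins, at sites related to the palindrome TTGCGCAA. In hepatocytes it sits at the promoters and enhancers of genes for glucose production, the urea cycle, lipid metabolism and plasma proteins, often beside Hnf4α. H3K27ac is a histone mark of active promoters and enhancers.

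The sequences of 9 loci are given because the results turn on them. Each is the central 200 bases of the locus, plus strand of mm9, named by the gene with which it is described, and capitals mark matches to TTGCNNAA on either strand. The first 5 held more tags on the LD, relative to the rest of their list. They lie at chr12:7927816-7928015 (Apob), chr1:54580677-54580876 (Pgap1), chr5:51680624-51680823 (Ppargc1a), chr5:17382540-17382739 (Cd36) and chr1:66947630-66947829 (Acadl).
Apob: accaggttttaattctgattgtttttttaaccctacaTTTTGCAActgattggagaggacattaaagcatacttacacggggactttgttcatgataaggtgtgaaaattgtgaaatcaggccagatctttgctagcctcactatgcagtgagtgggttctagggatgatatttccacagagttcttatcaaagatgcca
Pgap1: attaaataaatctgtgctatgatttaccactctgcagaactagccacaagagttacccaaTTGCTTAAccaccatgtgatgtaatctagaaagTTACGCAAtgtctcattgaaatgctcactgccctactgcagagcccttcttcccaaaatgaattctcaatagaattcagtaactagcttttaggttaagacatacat
Ppargc1a: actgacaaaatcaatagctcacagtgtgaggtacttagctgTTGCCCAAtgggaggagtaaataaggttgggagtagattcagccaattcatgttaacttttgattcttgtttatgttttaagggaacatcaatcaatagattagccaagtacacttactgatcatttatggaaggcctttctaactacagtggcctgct
Cd36: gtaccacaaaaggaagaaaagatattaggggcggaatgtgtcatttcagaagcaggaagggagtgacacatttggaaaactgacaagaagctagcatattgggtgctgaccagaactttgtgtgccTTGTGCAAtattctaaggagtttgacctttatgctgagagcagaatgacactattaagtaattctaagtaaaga
Acadl: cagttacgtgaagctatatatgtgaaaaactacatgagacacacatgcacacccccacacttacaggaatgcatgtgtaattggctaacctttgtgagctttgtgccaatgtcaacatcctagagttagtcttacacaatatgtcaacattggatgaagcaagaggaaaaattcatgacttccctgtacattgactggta

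The next 3 held more tags on the CD, and the last, at the promoter of Orm1, is shown as a tall peak with the full palindrome. They lie at chr16:23326829-23327028 (St6gal1), chr9:102910669-102910868 (Slco2a1), chr11:60018611-60018810 (Srebf1) and chr4:63005396-63005595 (Orm1). In the loci of Srebf1 and Orm1 the match is TTGCGCAA, within 20 bases of the centre. The loci of Acadl, St6gal1 and Slco2a1 hold no match in this window.
St6gal1: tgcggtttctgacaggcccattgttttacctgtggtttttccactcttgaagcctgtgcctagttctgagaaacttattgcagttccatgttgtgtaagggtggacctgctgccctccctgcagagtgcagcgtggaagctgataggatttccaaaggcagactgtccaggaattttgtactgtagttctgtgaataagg
Slco2a1: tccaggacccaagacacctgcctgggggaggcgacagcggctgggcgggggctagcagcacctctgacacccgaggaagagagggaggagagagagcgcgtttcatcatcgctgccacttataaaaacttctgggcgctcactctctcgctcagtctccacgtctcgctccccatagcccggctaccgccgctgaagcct
Srebf1: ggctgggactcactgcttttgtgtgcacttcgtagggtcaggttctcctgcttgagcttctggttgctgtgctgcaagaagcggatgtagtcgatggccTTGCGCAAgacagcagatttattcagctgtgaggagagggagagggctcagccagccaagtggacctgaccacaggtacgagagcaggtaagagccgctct
Orm1: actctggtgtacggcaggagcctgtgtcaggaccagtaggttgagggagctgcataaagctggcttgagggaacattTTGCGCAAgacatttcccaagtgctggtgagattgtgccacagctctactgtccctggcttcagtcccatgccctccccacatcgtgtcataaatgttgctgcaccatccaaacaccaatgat

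Peak lists were of similar length but differed in make-up. LD replicates 1 and 2 gave 38281 and 39310 peaks, and CD replicates 1 and 2 gave 41713 and 46371. The LD lists were thus shorter (LD minus CD of -5246.5 peaks), with an exact two-sided permutation p of 0.333, the smallest that 2 lists against 2 allow. The direction turned with the threshold, since peaks at least 10-fold over input numbered 24471 and 25057 on the LD against 21309 and 23086 on the CD. The median fold over input was 14.5 in both LD lists, 10 in CD replicate 1 and 9.75 in CD replicate 2. A further difference went with the diet: the fixed width of a peak was 236 and 250 bp in the LD lists and 314 and 286 bp in the CD lists, so that tags were counted over a wider window on the CD. Peaks found in no other list made up 28.1% and 29.6% of the LD lists but 40.3% and 54.5% of the CD lists. Such peaks were weak, with a median Normalized Tag Count of 7.0 in 3 lists and 7.5 in CD replicate 1, against 24.0 to 37.5 at the loci of all 4 lists.

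The Normalized Tag Count, the height of a peak, was exactly 0.5 of its Total Tags for 95.9% of peaks in LD and CD replicate 1 and for 100% in both replicates 2. Such a factor carries no depth of its own for each library, whether libraries were brought to a common depth is not given in the sources used here, and tags over all peaks summed to 1372008, 1531465, 2013353 and 1500715 (LD 1 and 2, CD 1 and 2). Heights are therefore given below as the lists hold them, and comparisons rest on percentiles, the place of a peak among all peaks of its own list, and the shift of a locus is its mean percentile on the LD minus that on the CD, in points. Over the 13813 loci, Spearman's rho between percentiles was 0.888 for the LD pair and 0.908 for the CD pair, and 0.707 to 0.788 between lists of different diets. These correlations are across loci, which are not replicates. The SD of the difference between lists was 11.7 points within the LD, 8.45 points within the CD and 13.5 to 16.0 points between the diets. In percentiles at these loci, lists of the same diet were thus closer to each other than to those of the other diet. In the loci they held, this was true of the LD pair, which shared 23915. The CD pair shared 18055, while CD replicate 1 shared more with the LD lists (20248 and 20471) and CD replicate 2 shared fewer (17296 and 17238).

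RNA of the same tissue served to check the label. The 5 hepatocyte markers summed to 76900 to 94300 CPM (counts relative to the total of a library) on the LD and 81800 to 97600 CPM on the CD, most of it Alb. Of these markers Cps1 was lower on the LD (2760 against 6950 CPM) by edgeR. Of the adipocyte markers, Lep and Plin1 had 0 counts in every mouse, and neither Adipoq nor Retn had enough counts to be tested. Among macrophage, lymphocyte and stellate cell markers, Cd68, Ptprc, Col1a1 and Dcn were higher on the LD by edgeR's quasi-likelihood test, of 6, 5 and 4 markers in those lists. Their summed levels were 469 to 1190 CPM on the LD against 371 to 722 on the CD for macrophages, 28.1 to 67.3 against 22 to 29.0 for lymphocytes and 305 to 450 against 263 to 315 for stellate cells. The part of other cells in the C/EBPα results was not tested, and in whole tissue fewer cells of a type and less RNA or binding per cell cannot be told apart. The RNA libraries held 31707963 to 39012699 counts.

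At the loci of all 4 lists, C/EBPα stood at higher percentiles on the CD, within lists of different make-up. The median shift was -4.54 points (quartiles -13.2 and 0.396), and 72.9% of loci had a negative shift. When the same loci were ranked again among themselves in each list, which takes the peaks of fewer lists out of the scale and sets the mean shift to 0 by construction, the median shift was -1.40 points (quartiles -11.2 and 8.90). Both lists of the LD lay above both of the CD at 2122 loci (15.4%), and both of the CD above both of the LD at 6966 loci (50.4%).

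By limma on the percentiles, with Benjamini-Hochberg adjustment over all 13813 loci, 435 loci (3.15% of those tested) were higher on the LD and 834 (6.04%) were higher on the CD at an adjusted p under 0.05. After ranking again, 815 (5.9%) were higher on the LD and 399 (2.89%) on the CD, so that the balance between directions is set by the scale. All 435 LD-higher loci and 392 of the 834 CD-higher loci were called on both scales, and 0 had opposite directions. edgeR on Total Tags, scaled over these loci, called 1533 (11.1%) and 1003 (7.26%), which included all 435 LD-higher loci and 626 of the CD-higher ones. The LD-higher calls thus held under these 3 scales with all lists, while more of the CD-higher calls were lost than kept after ranking again. Part of this follows from the scales, since the percentile leans toward the CD and ranking again takes that lean out of the mean. On log2 tag counts, limma called 121 LD-higher and 333 CD-higher loci. The counts changed when a list was left out. Without CD replicate 1 or CD replicate 2, only 1 and 2 loci were called higher on the CD, and 325 and 254 higher on the LD. Without LD replicate 1 or 2, 3364 and 2726 were called higher on the CD, and 719 and 550 higher on the LD. On the rank among shared loci, the LD-higher calls fell to 92 without LD replicate 1 and 0 without LD replicate 2 (1661 at an unadjusted p under 0.05 by limma), and limma without trend and robust fitting called 0 loci in either direction on the percentile (771 and 2921 at an unadjusted p under 0.05).

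Among called loci, the median shift was 14.5 points for those higher on the LD (range 2.44 to 65) and -17.0 points for those higher on the CD (range -65.7 to -2.19). At the LD-higher loci, the median Normalized Tag Count was 54.0 and 63.5 in the LD lists and 36.0 and 20.5 in the CD lists. At the CD-higher loci it was 21.25 and 23.0 on the LD, and 62.0 and 44.75 on the CD. On the scale of edgeR, the median log2 fold change of tags was 1.46 and -0.82. LD-higher loci were therefore, at the median, strong peaks of the LD lists that were weaker on the CD.

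The largest shift toward the LD was at an intergenic locus 56.6 kb from the start of Apob, the structural protein of lipoprotein particles, at chr12:7927761-7928089. Its Normalized Tag Count was 28.5 and 56.0 on the LD and 9.0 and 6.5 on the CD, a shift of 65 ± 11.1 points (SE; limma adjusted p = 0.0286). The RNA of Apob did not pass the test (log2 fold change -0.23, edgeR adjusted p = 0.187). In an intron of Sox6, a transcription factor of the SRY family, the values were 48.0 and 47.0 on the LD against 13.0 and 6.5 on the CD, a shift of 61.1 ± 11.9 points (SE; limma adjusted p = 0.0316). Sox6 RNA was lower on the LD (log2 fold change -0.70, edgeR adjusted p = 0.00145). In both cases each LD value was more than 3 times each CD value.

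A locus in an intron of Pgap1, which remodels the lipid anchor of membrane proteins, had the tallest peaks of the 10 largest LD shifts. It lies at chr1:54580628-54580942, 33.7 kb from the start of the gene, and its window holds a pair of motif matches. Its Normalized Tag Count was 88.5 and 133.5 on the LD against 23.0 and 7.5 on the CD (shift 45.9 ± 9.26 points, SE; limma adjusted p = 0.0323). Pgap1 RNA was nevertheless lower on the LD (log2 fold change -0.77, edgeR adjusted p = 0.00134). The nearest gene to another of the 10, at chr5:51680542-51680943, was Ppargc1a, the PGC-1α coactivator of mitochondrial and gluconeogenic genes, with its start 278 kb away. There the values were 35 and 47.0 on the LD and 16.0 and 7.0 on the CD (shift 48.2 ± 10.3 points, SE; limma adjusted p = 0.0349), while Ppargc1a RNA fell by 0.73 on the log2 scale (edgeR adjusted p = 0.000701). At this locus Hnf4α had moved the other way, with a rank shift of -30.1 points.

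The other 6 of the 10 largest LD shifts lay nearest to Mir6354, Meiob, 4930404A05Rik, Thrb, Gjd4 and Clvs1, with shifts of 49.4 to 59.1 points. Thrb, the thyroid hormone receptor β, had its start 247 kb away and its RNA was lower on the LD (log2 fold change -0.31, edgeR adjusted p = 0.0154). Of the 10 loci, 9 hold a TTGCNNAA match, Sox6 being the exception. None of the 4 named genes whose RNA was called (Sox6, Thrb, Ppargc1a and Pgap1) was higher on the LD. The starts of Sox6 (71.4 kb away), Thrb and Ppargc1a lay beyond the 50 kb used below to link loci and genes. Over all genes tested, 11.1% were lower and 13.8% higher on the LD by edgeR.

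The largest shifts toward the CD came from peaks that were near the floor of the LD lists. At the first, 14.2 kb from Zfp825, a zinc finger gene, the Normalized Tag Count was 6.5 and 6.5 on the LD and 25 and 19.0 on the CD, a shift of -65.7 ± 12.6 points (SE; limma adjusted p = 0.0312). The highest CD peaks among the 10 were in an intron of St6gal1, a sialyltransferase of liver glycoproteins, at chr16:23326755-23327073. The values there were 7.5 and 10.5 on the LD and 78.0 and 46.0 on the CD (shift -60.6 ± 8.93 points, SE; limma adjusted p = 0.0250). This locus was also the only one of the 10 called when loci were ranked only against others of like GC content (limma adjusted p = 0.0162), and Hnf4α had moved the same way, by -25.9 points of rank. St6gal1 RNA did not pass the test (log2 fold change 0.03, edgeR adjusted p = 0.906).

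At the promoter of Slco2a1, a prostaglandin transporter, the locus chr9:102910579-102910930 lay 0.065 kb from the start of the gene. Its Normalized Tag Count was 6.5 and 7.0 on the LD against 20 and 18.5 on the CD (shift -58.2 ± 12.9 points, SE; limma adjusted p = 0.0371). Slco2a1 RNA was lower on the LD as well, with a log2 fold change of -1.37 (edgeR adjusted p = 4e-05). The other 7 lay nearest to Igf2bp3, Zfp708, Esrrg, Tvp23a, Pomc, Ap5z1 and Hsbp1, with shifts of -63.0 to -58.3 points. Hsbp1, with its start 14.5 kb away, was called in RNA in the opposite direction, higher on the LD (log2 fold change 0.27, edgeR adjusted p = 0.00619). Only the locus near Ap5z1 holds a TTGCNNAA match, against 9 of 10 among the largest LD shifts. Ranked again among shared loci, 5 of the 10 CD-higher loci stayed past the threshold, and all 10 LD-higher ones did, but without LD replicate 2 none of the 20 did so on that scale, nor did any by limma without trend and robust fitting.

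**Figure D1:**
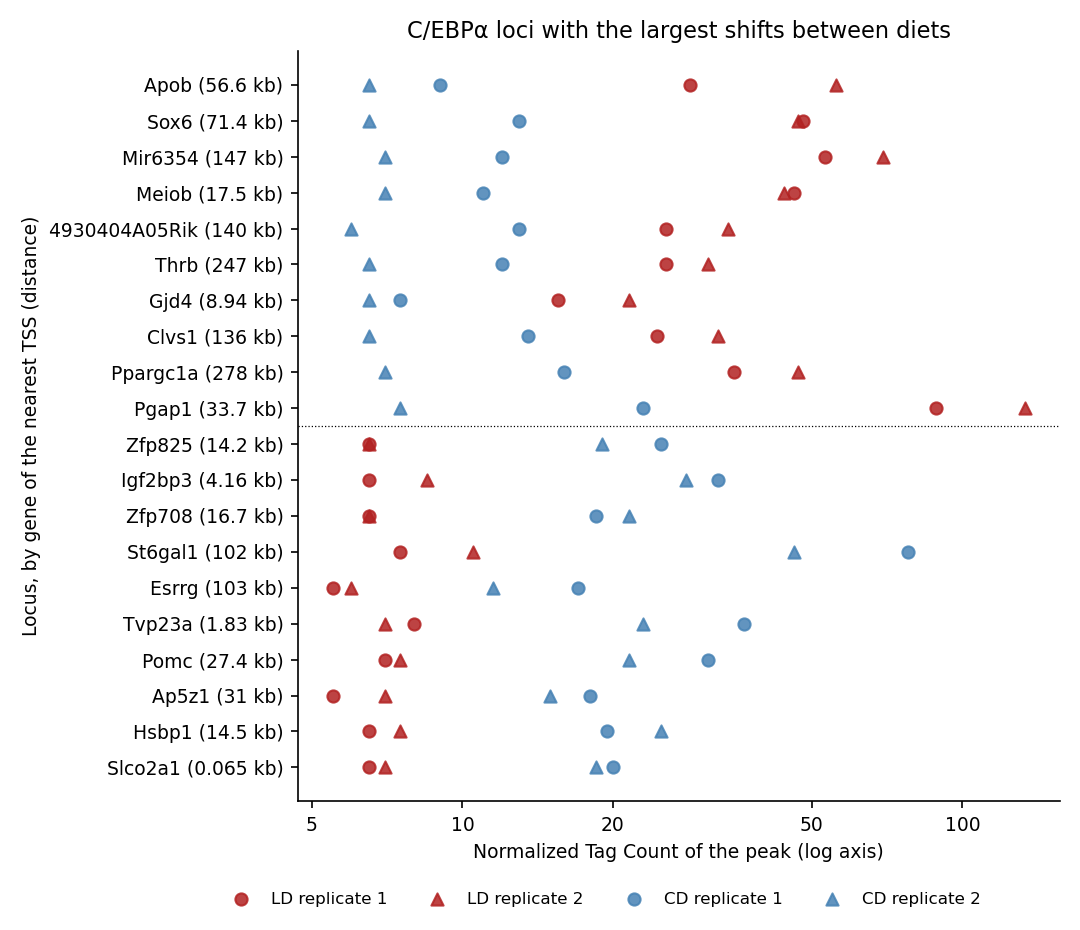
Normalized Tag Count of the peak (horizontal, log axis) in each of the 4 lists at the 10 loci with the largest called shifts toward the LD (above the dotted line) and toward the CD (below it), named by the nearest gene with its distance. Red points are LD and blue points CD lists, circles replicate 1 and triangles replicate 2; at Apob the LD values are 28.5 and 56.0 and the CD values 9.0 and 6.5, and no diet overlaps the other at any of the 20 loci.

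Loci close to the threshold were called by small margins. D230025D16Rik, with values of 35.5 and 50.5 on the LD and 31.5 and 17.5 on the CD, just missed the threshold (shift 13.7 points, limma adjusted p = 0.0501). C230079O03Rik, with 29.0 and 45.0 against 23.5 and 12, just passed it (19.8 points, limma adjusted p = 0.0499). On the CD side Cryl1 was just inside (-56.4 points, limma adjusted p = 0.0498) and Mgrn1 just outside (-11.2 points, limma adjusted p = 0.05).

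Base composition moved with the shift. In 5 equal groups of loci by the GC content of the central 200 bp, the median shift of the rank among shared loci fell at each step: it was 12.7 points at 30.5% to 44.5% GC, then 2.52, -2.72 and -6.37, and -9.24 points at 54.0% to 83.5% GC. In the group of lowest GC, 12.7% of loci were called higher on the LD and 1.12% higher on the CD. In the group of highest GC, the shares were 0.181% and 12%. The fall was present with and without a motif match, from 13.5 to -7.87 points for loci with a match and from 11.5 to -10.4 points for those without. Hnf4α could be followed only at the loci that all 4 of its lists also held, 1412, 1345, 1412, 1358 and 1030 of the 5 groups. There its median rank shifts were 0.365, 0.106, 0.262, 0.126 and -0.386 points, which did not follow this order, while those of C/EBPα at these loci were 12.7, 2.02, -3.08, -6.18 and -9.15 points. With 2 C/EBPα libraries per diet, a response of the libraries to GC content and an effect of the diet on loci of different composition cannot be told apart.

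Ranking loci only against others in 20 bins of equal GC content, an alternative added after the data were seen, left 165 loci (1.19%) higher on the LD and 113 (0.818%) higher on the CD by limma. Of the LD-higher loci on the main scale, 135 were also called in this way, as were 68 of the CD-higher loci. Without either of the CD lists, 0 loci were called within GC bins by limma in either direction, with 1062 and 860 (without CD replicate 1) and 800 and 587 (without CD replicate 2) at an unadjusted p under 0.05. Of the 10 largest LD shifts, 7 were called within GC bins, Apob, Sox6, Mir6354, Meiob, Thrb, Ppargc1a and Pgap1, against St6gal1 alone of the 10 largest CD shifts.

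**Figure D2:**
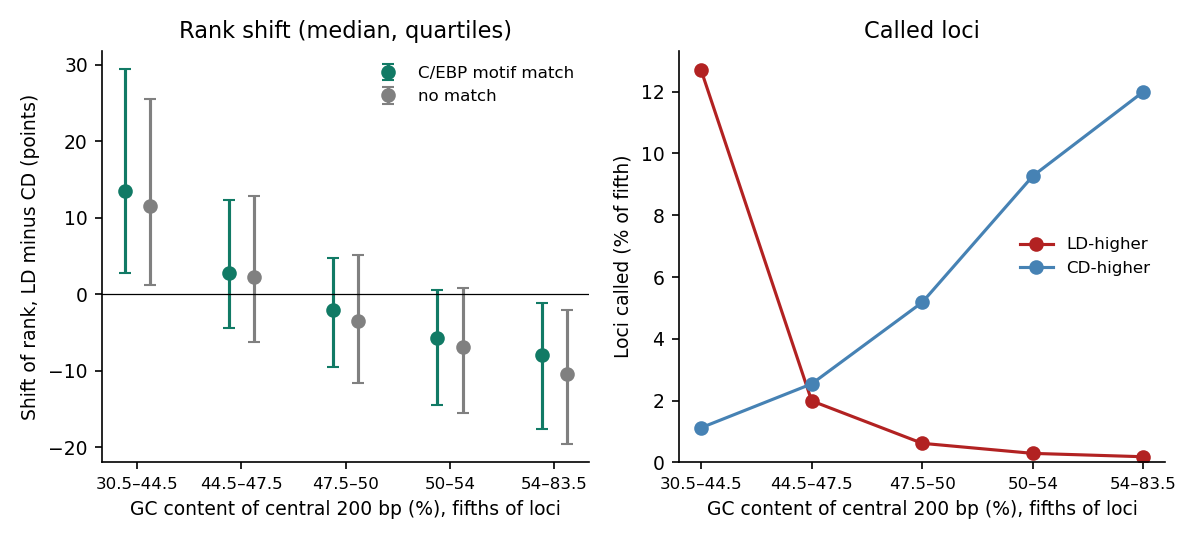
Left, shift of the rank among the shared loci (LD minus CD, points; medians with quartiles) in 5 equal groups of loci by GC content, for loci with (green) and without (grey) a C/EBP motif match. Right, share of loci (%) called higher on the LD (red) or the CD (blue) in the same groups; the LD share falls from 12.7% to 0.181% and the CD share rises from 1.12% to 12%.

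The C/EBP motif TTGCNNAA, searched on both strands in the central 200 bp, was found in 69.0% of LD-higher loci, 47.7% of CD-higher loci and 47.1% of all loci with sequence. Among loci called within GC bins the shares were closer, at 67.3% of LD-higher and 60.2% of CD-higher loci. In flanks 1000 bases away the share over all loci was 8.08%. The matches were more frequent in tall peaks, with 38.1% of loci in the lowest and 69.8% in the highest of 10 equal groups by mean percentile. The full palindrome TTGCGCAA, which is contained in TTGCNNAA, was found in 2.07% of LD-higher and 2.89% of CD-higher loci, against 2.66% of all. It was found in 7.17% of loci in the highest of the 10 groups, where percentiles have little room to move, and in 2.28% of LD-higher and 5.69% of CD-higher loci as edgeR called them on Total Tags. Matches gathered at the centre of the loci. Within 25 bp of it there were 43.0 matches per 100 LD-higher loci, 39.2 per 100 CD-higher loci and 35.6 per 100 loci that were not called. In the steps on either side, 25 to 75 bp from the centre, there were 17.7 and 22.3 per 100 LD-higher loci but 5.05 and 4.93 per 100 CD-higher loci. Matches at LD-higher loci were thus spread more widely around the centre.

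Strings for other factors were searched in the same way. The C/EBP-ATF composite TGATGNAA, which cannot fill the same 8 bases as TTGCNNAA but may overlap it in part, was in 14.3% of LD-higher, 7.58% of CD-higher and 9.47% of all loci. The AP-1 string TGANTCA was in 9.89%, 6.38% and 7.60%, and the ETS string CCGGAAGT in 0.23%, 1.81% and 0.833%. The forkhead string TGTTTAC was in 3.91%, 5.17% and 5.21%, and the Hnf4α string CAAAGTCCA in 2.53%, 1.56% and 1.99%. AP-1 and C/EBP-ATF strings were most frequent at LD-higher loci. These strings differ in base composition, as the loci do.

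**Figure D3:**
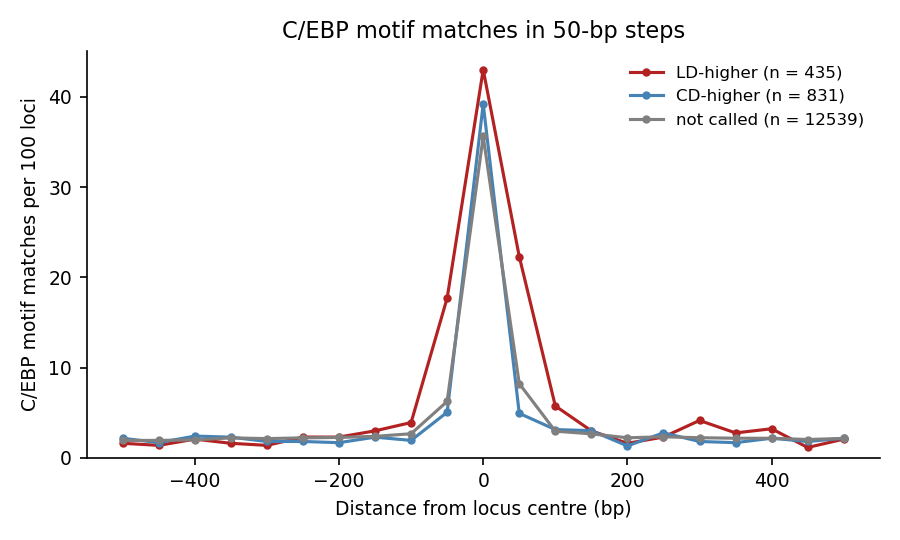
Matches to the C/EBP motif per 100 loci (vertical) in steps of 50 bp by distance from the centre of the locus (horizontal), for the 435 LD-higher (red), the 831 CD-higher loci with sequence (blue) and the 12539 loci not called (grey). All 3 curves peak at the centre, at 43.0, 39.2 and 35.6, and the LD-higher curve is broader.

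Called loci also differed in position and in other readouts that the choice of loci did not use. Within 1 kb of a transcription start lay 4.37% of LD-higher and 22.1% of CD-higher loci, against 14.0% of all, and the median distance to the nearest start was 27.1, 11.9 and 18.0 kb. At least 3 CpG dinucleotides were in the window of 26.7% of LD-higher and 71.5% of CD-higher loci, against 56.3% of all. On this scale CD-higher loci were closer to promoters and richer in CpG. Among loci called within GC bins the contrast in position was small, with 2.42% and 3.54% within 1 kb of a start and median distances of 27.9 and 29.3 kb, and 26.7% and 51.3% held at least 3 CpG.

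H3K27ac followed C/EBPα in the share of loci where it differed. More LD than CD libraries had an H3K27ac interval at 13.8% of LD-higher and 3.36% of CD-higher loci, against 8.67% of all, and more CD than LD libraries at 4.37%, 7.91% and 5.68%. In the GC bins the contrast was wider, with more LD than CD libraries at 26.1% of LD-higher and 1.77% of CD-higher loci. In most cases the mark did not differ, since 69.0% of LD-higher and 80.9% of CD-higher loci had an interval in all 6 libraries. Hnf4α was present in all 4 of its lists at 57.7% of LD-higher, 51% of CD-higher and 47.5% of all loci. Where it was, its own rank stood higher on the LD at 60.2%, 35.3% and 50.7% of loci, and at 76.2% and 24.2% of the loci called within GC bins. Over the 6558 loci with both factors in all lists, Spearman's rho between the rank shifts of C/EBPα and Hnf4α was 0.202, and 0.143 to 0.265 within the 5 GC groups, as a description across loci. The shifts of the 2 factors thus leaned the same way, weakly. These shares are descriptions over loci with no test.

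Loci outside all 4 lists were more often bound in both LD than in both CD lists. A peak in both LD lists and no CD list was found at 5045 loci, and one in both CD lists and no LD list at 1723. Absence from a list is not an absence of tags, only of a peak past the threshold. The LD loci were poor in GC (median 42.0%), 6.05% lay within 1 kb of a start and 43.2% held a TTGCNNAA match. The share was 46.7% for loci in all 4 lists with windows placed, for this comparison, at the midpoint of the merged locus. The CD loci had a median GC content of 51%, 15.2% lay within 1 kb of a start and 27.1% held a match. Within each diet, peaks of a single list held fewer matches than loci of both its lists, 22.3% and 30.9% for the LD lists and 14.9% and 11% for the CD lists.

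Among the loci bound on one diet only, the 5 strongest of each kind were looked up after the values were seen. Irs1, an adaptor of the insulin receptor, had a locus 2.89 kb from its start (chr1:82290774-82291031) with a Normalized Tag Count of 83.0 and 89.0 on the LD and no peak on the CD, and Irs1 RNA was lower on the LD (log2 fold change -0.73, edgeR adjusted p = 0.0106). Ppara, the receptor that drives fatty acid oxidation genes, had one 36.3 kb away with 102.5 and 77.0 on the CD and no peak on the LD, and Ppara RNA was higher on the LD (0.34, edgeR adjusted p = 0.016). Acadsb, a short/branched-chain acyl-CoA dehydrogenase, had one 38.7 kb away with 74.0 and 51.5 on the CD, and its RNA was lower on the LD (-0.46, edgeR adjusted p = 0.00136). Cmpk1, a nucleoside monophosphate kinase, had one 16.3 kb away with 86.5 and 100 on the LD, and its RNA was higher on the LD (0.39, edgeR adjusted p = 0.00456). The direction of the RNA matched that of binding at Acadsb and Cmpk1 and was opposite at Irs1 and Ppara. The tallest LD-only locus, nearest to 4930559C10Rik, had 125.5 and 123.5, and the tallest CD-only locus, 122 kb from Hif1a, had 164.0 and 120.5. All 5 LD-only loci and 3 of the 5 CD-only loci held a motif match.

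Genes of C/EBPα's known pathways were followed through 8 lists. All 74 genes passed the filter on low counts, and 93.2% had at least 1 of the shared loci within 50 kb of their start, against 65.3% of the 13494 genes tested. By edgeR, 1859 of all genes (13.8%) were higher and 1498 (11.1%) lower on the LD. The counts of called loci below are to be read against the 3.15% and 6.04% of all loci called higher on the LD and on the CD, and loci are counted once per gene. Within GC bins none of the CD-higher loci near listed genes was called. Ranked again, called loci of Cebpb, G6pc, Gys2, Fasn, Acly, Cpt1a, Acadm, Hadh, Cidec, Fabp1, Lcn2, the fibrinogen genes and Cyp7a1 were no longer called. Centring each list on the shared loci would add 4.74 points to every shift, so that the sign of small negative shifts is set by the scale, as it is for 90 of the 834 CD-higher loci and, among those named below, for loci of Cebpb, Fabp1, Mlxipl and Lamb3. Among the 8814 genes with a locus, the median of the mean shift was -7.21 points, and -3.6 points when ranked again.

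The C/EBP genes themselves had loci that leaned toward the CD. Cebpa RNA had 321 ± 26.8 CPM on the LD and 384 ± 23.5 CPM on the CD (SD, n = 5), a log2 fold change of -0.26 ± 0.08 (SE) that passed the adjusted p of edgeR (0.0202) but not the minimum fold of 1.2. The locus 0.185 kb from its start had a Normalized Tag Count of 33.5 and 31.5 on the LD and 44.0 and 54.0 on the CD and was not called (shift -4.71 points, limma adjusted p = 0.347). Cebpe alone of the 6 genes was called in RNA (log2 fold change 0.63, edgeR adjusted p = 0.0068), and it had no shared locus. Of 14 loci counted per gene near Cebpa, Cebpb, Cebpg and Ddit3, 3 were called higher on the CD and 0 on the LD by limma. The locus 33.8 kb from Cebpb, a partner of C/EBPα, had 8.5 and 11 on the LD against 32.0 and 27.5 on the CD (shift -43.8 points, limma adjusted p = 0.0341), and the promoter locus of Ddit3, the stress-induced CHOP, had 15.5 and 21.5 against 69.0 and 40.5 (-24.1 points, limma adjusted p = 0.0330). The remaining one lies 1.03 kb from the start of Cebpb, with 46.5 and 63.0 against 139.5 and 91.0 (-3.66 points, limma adjusted p = 0.0490). RNA of Cebpb (log2 fold change 0.27) and Ddit3 (0.28) did not pass the test. RNA of the antibody target, Cebpa, was lower in every LD mouse (288 to 355 CPM) than in any CD mouse (362 to 419 CPM), by less than the minimum fold. None of the 3 called loci was called within GC bins.

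Lipid uptake and droplet genes rose most in RNA, and their C/EBPα loci moved in both directions. Of 12 genes, 10 rose and 0 fell by edgeR (median log2 fold change 1.41), and of 30 loci counted per gene, 2 were called higher on the LD and 3 on the CD by limma (3 and 1 when ranked again). Both LD-higher loci were in introns of Cd36, the fatty acid translocase that takes up long-chain fatty acids. At chr5:17382443-17382791, 12.2 kb inside the gene, the Normalized Tag Count was 48.0 and 52.5 on the LD against 16.5 and 9.0 on the CD (shift 37.9 ± 5.66 points, SE; limma adjusted p = 0.0250, and 0.0232 within GC bins). At chr5:17368956-17369270, 25.7 kb inside, it was 57.5 and 76.5 against 62.5 and 42.5, a shift of 4.92 points (limma adjusted p = 0.0431, and 0.0328 within GC bins). In that second locus the heights of the diets overlap, while the percentiles do not. Cd36 RNA rose from 111 ± 29.4 CPM on the CD to 414 ± 97.8 CPM on the LD (SD, n = 5; log2 fold change 1.89, edgeR adjusted p = 0.000104), and of the listed genes with an LD-higher locus that was also called within GC bins (Acadl, Cd36 and Insig2) it was the one whose RNA rose. Another Cd36 locus had a shift of -38.0 points and was not called.

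Pparg, the adipogenic nuclear receptor, had 1 locus, 20.7 kb upstream, with 36.0 and 35 on the LD and 27 and 13.0 on the CD. It missed the threshold on the percentile (16.5 points, limma adjusted p = 0.0602) and passed it on the rank among shared loci (46.7 points, limma adjusted p = 0.0256), but not within GC bins (0.116). Pparg RNA rose by 1.41 on the log2 scale (edgeR adjusted p = 1.3e-05). Cidec, which fuses lipid droplets, rose further, from 2.17 ± 0.686 CPM on the CD to 94.4 ± 39.7 CPM on the LD (SD, n = 5; log2 fold change 5.44, edgeR adjusted p = 4.2e-05). Of its 4 loci, 2 were called, against the direction of the RNA. At one, upstream of Cidec but 0.031 kb from the start of Jagn1, the values were 35 and 38.0 on the LD against 102.5 and 65 on the CD (-8.44 points, limma adjusted p = 0.0312, but 0.199 within GC bins), and in an exon of Cidec 18.0 and 16.5 against 44.0 and 35 (-21.8 points, limma adjusted p = 0.0436, but 0.0625 when ranked again and 0.276 within GC bins). Near Fabp1, the liver fatty acid carrier, whose RNA did not pass the test (log2 fold change 0.08), 1 of 8 loci was called higher on the CD, with a shift of -2.28 points. Plin2, Plin4, Fabp4, Mogat1, Cidea, Lpl and Vldlr rose in RNA with no locus nearby called by limma on the percentile. Lpl and Vldlr had no shared locus at all. On Total Tags, edgeR called a tall locus near Fabp4 (log2 fold change -0.596, adjusted p = 0.000859) and one near Plin2 (-0.417, adjusted p = 0.0257) higher on the CD.

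Lipogenic genes fell in RNA, and most of their loci were not called. Of 10 genes, 7 fell and 0 rose by edgeR (median log2 fold change -0.90), and of 39 loci, 1 was called higher on the LD and 5 on the CD by limma (2 and 2 when ranked again). In an exon of Srebf1, the SREBP-1 regulator of fatty acid synthesis, the locus chr11:60018561-60018875 held 27 and 26.0 on the LD and 74.0 and 71.5 on the CD (shift -14.9 ± 2.92 points, SE; limma adjusted p = 0.0317, and 0.112 within GC bins). Srebf1 RNA did not pass the test, at 355 ± 50.6 CPM on the LD and 485 ± 255 CPM on the CD (SD, n = 5; edgeR adjusted p = 0.292). An intron of Mlxipl, the glucose-sensing ChREBP, held 55.5 and 51 against 149.0 and 126.0 (-4.33 points, limma adjusted p = 0.0320), and its RNA fell by 1.06 on the log2 scale (edgeR adjusted p = 9e-06). Fasn, the fatty acid synthase, fell by 0.94 on the log2 scale in RNA and had 2 of 5 loci called higher on the CD, and Acly, which makes cytosolic acetyl-CoA, fell by 0.65 and had 1 of 5. Within GC bins none of these 5 loci passed. The only LD-higher locus on the percentile was 27.9 kb upstream of Pnpla3, a lipid droplet lipase whose RNA fell most in this list (log2 fold change -2.30), with 73.0 and 81.5 on the LD and 85 and 56.0 on the CD (2.80 points, limma adjusted p = 0.0464, and 0.176 within GC bins). Near Scd1, the stearoyl-CoA desaturase, whose RNA fell by 0.96 on the log2 scale, a locus with 40 and 49.5 on the LD and 36.0 and 20.5 on the CD was higher on the LD when ranked again (37.1 points, limma adjusted p = 0.0265), but not on the percentile (0.0519) or within GC bins (0.121).

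Fatty acid oxidation genes rose in RNA, and most of their loci were not called. Of 11 genes, 9 rose and 0 fell by edgeR (median log2 fold change 0.57), and of 31 loci 1 was called higher on the LD and 5 on the CD by limma (2 and 2 when ranked again). The LD-higher one was 37.8 kb upstream of Acadl, the long-chain acyl-CoA dehydrogenase, at chr1:66947521-66947903. Its Normalized Tag Count was 90 and 85.5 on the LD and 31.5 and 16.5 on the CD (shift 22.1 ± 2.92 points, SE; limma adjusted p = 0.0250, and 0.0200 within GC bins). No H3K27ac library of either diet had an interval there, its window holds no motif match, and Acadl was one of the 2 genes of the list whose RNA did not pass (log2 fold change 0.19, edgeR adjusted p = 0.0986). In introns of Cpt1a, which admits fatty acids to mitochondria, a pair of loci held 38.0 and 45.5 against 95.0 and 86.0 (-6.32 points, limma adjusted p = 0.0344) and 25 and 25.5 against 58.5 and 55.5 (-13.7 points, limma adjusted p = 0.0421), while Cpt1a RNA rose by 0.59 on the log2 scale. CD-higher loci near Acadm, Hadh and Ehhadh (-31.8, -29.3 and -13.3 points) likewise stood beside RNA that rose by 0.62, 0.68 and 0.37 on the log2 scale. None of these 5 CD-higher loci passed within GC bins.

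Genes of glucose, urea and amino acid metabolism include classic C/EBPα targets. Of 8 glucose genes, G6pc, Ppargc1a and Pklr fell and 1 rose in RNA by edgeR, and of 34 loci 3 were called higher on the CD by limma (1 when ranked again). One was 16.6 kb from G6pc, the last enzyme of glucose release, with 11 and 12.5 on the LD against 26.5 and 29.5 on the CD (-31.5 points, limma adjusted p = 0.0496, but 0.0999 when ranked again and 0.193 within GC bins), and G6pc RNA fell by 1.2 on the log2 scale. The other 2 were in exons of Gys2, the liver glycogen synthase, with shifts of -28.9 and -13.0 points, and Gys2 RNA did not pass (0.06). Of 7 urea and amino acid genes, Cps1, Ass1 and Tat fell and none rose in RNA. Of their 23 loci, 1 was called higher on the CD and 0 on the LD by limma. At Cps1, the first urea cycle enzyme, RNA fell by 1.33 on the log2 scale while a locus 6.29 kb upstream, with overlapping heights (61.5 and 71.0 on the LD, 73.5 and 51.5 on the CD), passed when ranked again (limma adjusted p = 0.0401). It did not pass on the percentile (0.0690), on Total Tags by edgeR (0.0683) or within GC bins (0.451).

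Plasma protein and acute phase genes rose and fell in RNA beside tall C/EBPα peaks. Of 12 genes, Hp, Saa1, Saa2, Lcn2 and Apoa4 rose and Fga, Fgb and Fgg fell in RNA by edgeR. Of 68 loci counted per gene, 4 were called higher on the CD by limma, 3 of them being 1 locus shared by the fibrinogen genes Fga, Fgb and Fgg (28.0 and 23.5 against 68.0 and 47.0; -13.6 points, limma adjusted p = 0.0457, but 0.0604 when ranked again and 0.152 within GC bins). Ranked again, 0 of the 68 were called in either direction. At the promoter of Orm1, the orosomucoid gene, chr4:63005330-63005644 held 147.0 and 121.5 on the LD and 279.5 and 195.5 on the CD, among the tallest peaks of every list, so that the shift was -0.129 points (limma adjusted p = 0.834). The percentile cannot show a change at such heights, and edgeR on Total Tags called this locus higher on the CD (log2 fold change -0.41, adjusted p = 0.0144). Saa1 and Saa2, whose near-identical sequences could share reads, rose by 2.86 and 3.32 on the log2 scale, and their shared top locus held 100 and 119.5 against 265.5 and 161.0 (-0.298 points, limma adjusted p = 0.618), while on Total Tags it was higher on the CD (log2 fold change -0.53, edgeR adjusted p = 0.0018).

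Of 8 sterol and bile acid genes, 2 rose, among them Cyp8b1, and Cyp27a1 and Abcb11 fell in RNA by edgeR. A locus 16.5 kb upstream of Insig2, which retains SREBP in the endoplasmic reticulum, held 58.5 and 75 on the LD and 58.5 and 40 on the CD (5.80 points, limma adjusted p = 0.0371, and 0.0301 within GC bins), and all 4 Insig2 loci had positive shifts (5.32 to 9.14 points). Insig2 RNA did not pass the test (log2 fold change 0.53, edgeR adjusted p = 0.124). In an exon of Cyp7a1, the rate-limiting enzyme of bile acid synthesis, the values were 16.0 and 16.5 on the LD and 56.0 and 23.0 on the CD (-22.3 points, limma adjusted p = 0.0472, but 0.107 when ranked again and 0.310 within GC bins), with RNA at 116 ± 50.5 and 203 ± 80.4 CPM (SD, n = 5; edgeR adjusted p = 0.160).

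**Figure D4:**
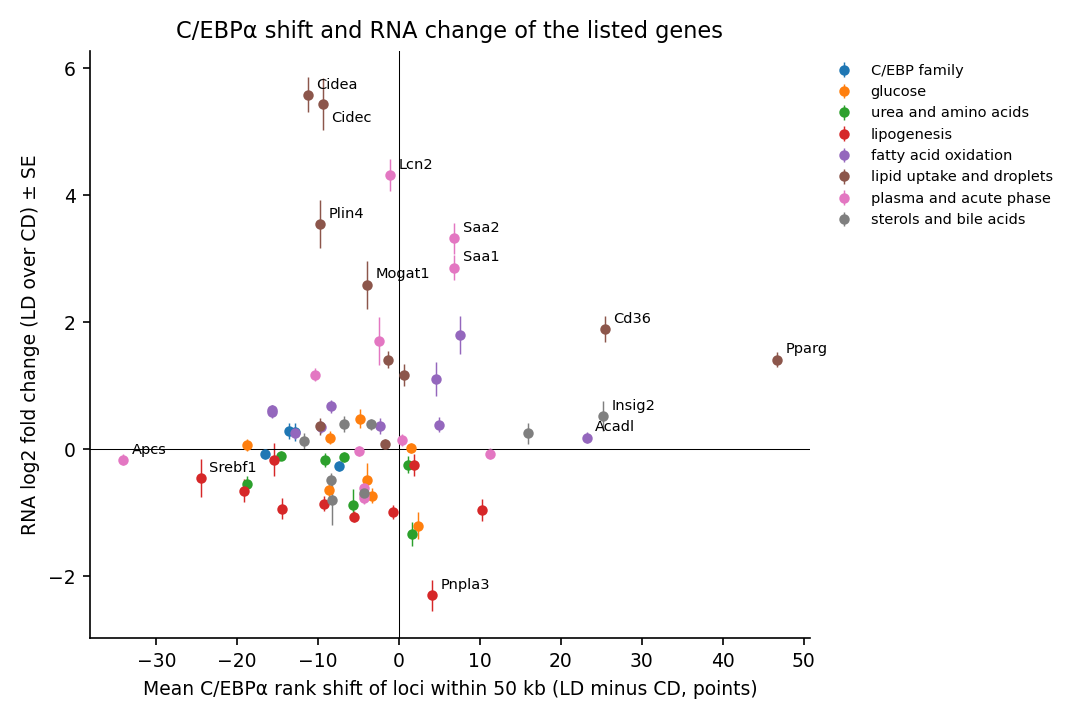
RNA log2 fold change (LD over CD, with its SE) against the mean C/EBPα rank shift of loci within 50 kb (LD minus CD, points) for the genes of the 8 lists that have a locus, coloured by list. Cidec (5.44) and Cidea (5.58) rise most in RNA at negative rank shifts of -9.43 and -11.3 points, while Pparg (46.7 points), Cd36 (25.4) and Insig2 (25.2) lie farthest to the right.

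Across all 8814 genes with a locus, the mean shift within 50 kb and the RNA change were weakly related. Spearman's rho was 0.073 on the percentile, 0.084 after ranking again and 0.115 within GC bins, and over the 2303 genes called in RNA it was 0.147. These correlations are across genes, which are not replicates and share loci. In 10 equal groups of genes by rank shift, RNA was called higher on the LD for 9.19% of genes in the group farthest toward the CD and for 21.3% in the group farthest toward the LD. RNA called higher on the CD fell from 13.1% to 9.41% between the same groups. For loci on the distal end of a promoter interaction, rho was -0.001 over 5172 genes (0.004 ranked again).

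Of 333 genes with an LD-higher locus and no CD-higher one within 50 kb, 19.2% were higher and 13.5% lower on the LD in RNA. Of 1260 with CD-higher loci only, 10.1% were higher and 17.7% lower. Of the 7176 with no called locus, 13.8% were higher and 11.7% lower. Within GC bins, 21.2% of 137 genes near LD-higher loci rose and 13.1% fell, and 8.97% of 145 genes near CD-higher loci rose and 24.8% fell. Most genes beside a called locus were thus not called in RNA. Where they were, the direction was that of C/EBPα more often than not. RNA higher on the LD was also the more frequent direction at genes with no called locus. RNA lower on the LD was more frequent near LD-higher loci (13.5%) than at those genes (11.7%).

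**Figure D5:**
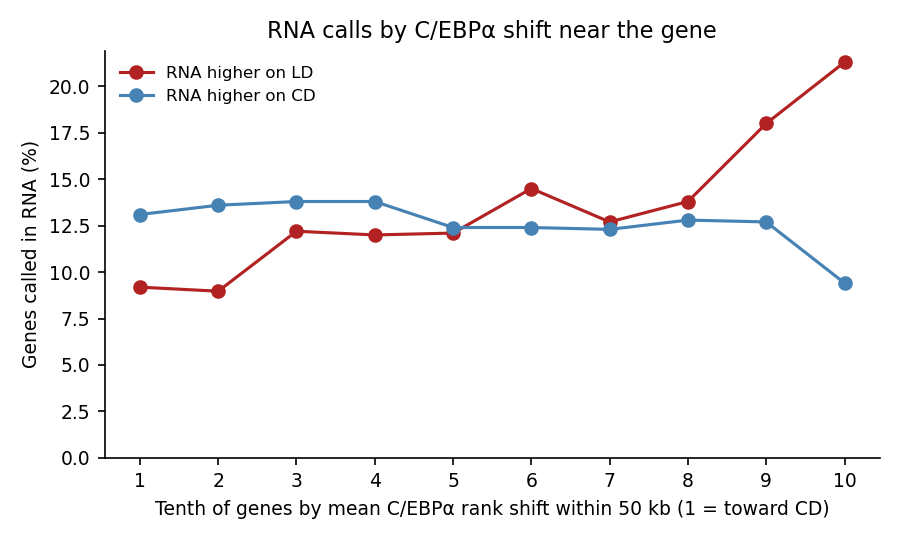
Share of genes (%) whose RNA was called higher on the LD (red) or on the CD (blue) in 10 equal groups of the 8814 genes by the mean C/EBPα rank shift of their loci within 50 kb, from the group farthest toward the CD (1) to that farthest toward the LD (10). The LD share goes from 9.19% to 21.3% and the CD share from 13.1% to 9.41%.

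Genes were taken here if called in RNA with all 5 mice of a diet apart from those of the other. Of genes tested, 10.2% were apart in this way higher and 8.35% lower on the LD. With a mean of at least 1 CPM on either diet and a called locus within 50 kb, 299 remained. Their RNA change had the same direction as the called locus of largest shift in 192 and the opposite in 107. The agreement that the unequal shares of the directions would give by themselves was not computed, and genes sharing a locus were counted separately. Adgrf1, an adhesion G protein-coupled receptor, had the largest change of the same direction, with 0.476 ± 0.480 CPM on the LD and 25.8 ± 10.2 CPM on the CD (SD, n = 5; log2 fold change -5.69, edgeR adjusted p = 0.000296). The locus in its exon (annotated under the older name Gpr110) held 9.0 and 7.0 on the LD and 27.5 and 20.5 on the CD (-50.9 points, limma adjusted p = 0.0394). Serpina4-ps1, a serpin pseudogene whose reads may be shared with its relatives, had a log2 fold change of -3.35 (edgeR adjusted p = 0.0161), and a locus 1.1 kb upstream with 17.5 and 25 against 92.5 and 74.5 (-23.7 points, limma adjusted p = 0.0281, and 0.0162 within GC bins). That locus holds a motif match and its Hnf4α rank had moved by -12.9 points.

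Anxa2, an annexin of membranes, rose from 20.9 ± 2.80 CPM on the CD to 115 ± 44.8 CPM on the LD (SD, n = 5; log2 fold change 2.46, edgeR adjusted p = 0.00026). A locus 13.8 kb upstream held 89.5 and 85.5 on the LD and 69.5 and 43.5 on the CD (5.83 points, limma adjusted p = 0.0250, and 0.0154 within GC bins). Agpat9, an acyltransferase of glycerolipid synthesis, rose by 2.79 on the log2 scale (edgeR adjusted p = 1.4e-05) with 53.0 and 64.0 against 43.5 and 24.0 at a locus upstream (11.3 points, limma adjusted p = 0.0333), which did not pass within GC bins (0.119). Gm38416 was the other gene of this direction (0.208 CPM on the LD and 1.62 CPM on the CD, log2 fold change -2.92). Like Adgrf1, it passed the minimum through the CD alone. The Gm38416 locus did not pass when ranked again (limma adjusted p = 0.0583). In the opposite direction were Cidec, described above, Lcn2 (log2 fold change 4.32, shift -5.91 points), Pnpla5 (-2.97, 2.80 points), Ccdc120 (2.90, -48.8 points) and Lamb3 (2.37, -4.27 points). Pnpla5 (0.769 CPM on the LD) and Ccdc120 (0.331 CPM on the CD) passed the minimum through the other diet alone. The Ccdc120 locus did not pass when ranked again (limma adjusted p = 0.0899) or on Total Tags (edgeR adjusted p = 0.0655). None of the loci in the opposite direction was called within GC bins, while those of Serpina4-ps1 and Anxa2 were.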

How the data were processed

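C/EBPα, Hnf4α and H3K27ac ChIP-seq and RNA-seq of liver on the LD and the CD were used. For C/EBPα (antibody ab40764) and Hnf4α, the authors aligned reads of 35 bases to mm9, kept unique reads without duplicates, and called peaks with HOMER in each library against its input. Each peak of the deposited lists has a signal (Normalized Tag Count), a count of Total Tags, a ratio (fold change over the control) and a findPeaks score, which was used only to order peaks of equal height. The submitters' processing notes name Bowtie 0.12.8, Picard 1.110, STAR 2.5 and featureCounts 1.5.0-p1. The deposited RNA values are raw counts of read pairs per RefSeq gene by strand. H3K27ac lists hold intervals that the authors called with SICER per library, and the deposited interaction lists hold the CHiCAGO score of pooled libraries. Log2 fold changes and TPM from the authors' own comparison, and TAD lists, were not used.

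Peaks overlapping by at least 1 base were merged, and a locus took its highest peak in a list. Percentiles at loci of all 4 lists were compared by limma 3.58.1 (trend and robust) in R 4.3.3, which shares the spread over loci since each diet has 2 libraries. Counts were tested by edgeR 4.0.16 (TMM, filterByExpr, robust quasi-likelihood). Tests were two-sided with Benjamini-Hochberg adjustment, calls had an adjusted p under 0.05, and RNA calls also a fold change above 1.2. The authors used DiffBind on reads, which were not used here. Depth outside peaks is not in the lists, so that no interval was computed for single peaks, and a height near the floor of 5.0 rests on about 10 tags. Coordinates are mm9 throughout, gene starts are those of the deposited count table, and exons, introns, sequence and GC content come from NCBIM37, the same assembly (sequence for 13805 of 13813 loci). Lists were handled in Python 3.11.15 (pandas 2.3.3, numpy 2.4.6, scipy 1.17.1). The limma fit on percentiles and the edgeR fit on RNA counts were also run on simulated data, and the fits on other scales were not.

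The loci named are the 10 largest called shifts in each direction with separated diets, called by the gene of the nearest start. The genes named are those of the 8 lists, each with its loci within 50 kb, and the genes with the largest RNA changes among called genes with separated mice, a mean of at least 1 CPM on either diet and a called locus within 50 kb, 5 in the direction of the locus and 5 in the opposite one. Of the genes under this rule, some are not reported here. Loci bound on one diet only and loci next to the threshold were picked afterwards. Members, lists and tests were chosen with earlier results of these data known. Alternatives were another scale (rank among shared loci, equal list lengths, log2 of the tag count with 1 added, with and without quantile normalization, edgeR and DESeq2 1.42.0 on Total Tags), other overlaps, a block for the replicate number and the omission of each list. Ranks within 20 GC bins and centred percentiles were added after the data were seen. Replicate numbers did not pair the libraries: C/EBPα lists of the same number deviated from their diet's mean with a correlation of -0.032 over loci.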

Additional observations from a re-analysis of the deposited data

Results flagged for a closer look

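Of 164 groups of 5 mice examined for the RNA of the named genes, 4 held a mouse far from the other 4 by Dixon's criterion at 95%, which chance alone gives in about 1 group of 20. Srebf1 had 924 CPM in CD replicate 3 and 279 to 456 CPM in the other CD mice. Serpina4-ps1 had 124 CPM in CD replicate 4 and 27 to 34.3 CPM in the other CD mice. Saa1 had 115 CPM in LD replicate 1 and 85.7 to 93.5 CPM in the others, and Apcs had 84.1 CPM in LD replicate 1 and 96.2 to 100 CPM in the others. The C/EBPα groups hold 2 lists each and could not be examined in this way.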

How the results depend on the processing

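Counts of called C/EBPα loci depended on the scale, and the cause was not tested. LD-higher and CD-higher loci, 435 and 834 by limma on the percentile, were 815 and 399 on the rank among shared loci (the same with heights summed per locus), 344 and 230 at equal list lengths, 1325 and 963 on quantile normalized log2 tag counts, 121 and 333 on log2 tag counts, 1533 and 1003 by edgeR on Total Tags and 705 and 258 by DESeq2. Chosen after seeing the data, GC bins gave 165 and 113, and percentiles centred on the shared loci 2403 and 714. limma without trend and robust fitting called 0 and 0, with 771 and 2921 at an unadjusted p under 0.05. Leaving out 1 list gave 254 to 719 LD-higher and 1 to 3364 CD-higher loci on the percentile, 92 and 161, 0 and 0 (unadjusted 1661 and 1685), 454 and 17, and 263 and 3 on the rank, and 15 and 98, 6 and 87, 0 and 0, and 0 and 0 within GC bins, in the order LD replicate 1, LD replicate 2, CD replicate 1 and CD replicate 2. With 1 list left in a diet, it is assumed to vary like the other diet.

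With a block for the replicate number, the counts were 524 and 1201 on the percentile and 664 and 256 on the rank. The numbers do not mark shared animals, and same-numbered RNA libraries deviated with correlations of -0.078, 0.191, 0.014, 0.014 and -0.042. The block kept the median shift at -4.54 and gave 1818 and 1355 called genes.

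The median shift was -1.40 on the rank, -2.82 at equal list lengths and -5.39 to -3.64 without 1 list. The difference in peak number turned to 2566.5 at 10-fold over input. Centring adds 4.74 points to every shift, which by construction turns the sign of 90 of the 834 CD-higher loci, such as those of Cebpb (1.08), Fabp1 (2.47) and Lamb3 (0.478). The relation to RNA, 0.073, was 0.064 for the nearest locus, 0.062 within 100 kb, 0.084 ranked again, 0.115 within GC bins, 0.147 over genes called in RNA, -0.001 and 0.004 (ranked again) for distal ends of interactions and 0.064 to 0.078 without 1 list. Counts of genes called in RNA stayed within 1.5 times of 1859 and 1498 under every alternative run, including DESeq2 (2081 and 1695).

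Peak lists bound what can be said: loci without a peak in 1 list were not tested, absence of a peak is not absence of tags, wider CD peaks and the GC trend move with the diet, and 2 lists per diet give the spread of each.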
